A study of Mus musculus with 12 samples.

Results

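Ferritin and the genes that handle and sense cellular iron were followed through cisplatin treatment of KPC cells, a mouse pancreatic ductal adenocarcinoma (PDAC) line. They are 9 of the 15803 genes with a read in at least 1 library: Ftl1 (ENSMUSG00000050708), Fth1 (ENSMUSG00000024661), Slc40a1 (ENSMUSG00000025993), Tfrc (ENSMUSG00000022797), Slc11a2 (ENSMUSG00000023030), Trf (ENSMUSG00000032554), Aco1 (ENSMUSG00000028405), Ireb2 (ENSMUSG00000032293) and Ncoa4 (ENSMUSG00000056234). The genes were chosen by symbol, with their footprint and RNA values over PBS, 6 h and 21 h in these same libraries already known. Their values are therefore given as a description, and counts of their calls stand only beside the share over all transcripts. All 9 had reads in all 12 libraries and passed the filter on low values in both assays.

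Cells received 20 μM cisplatin (Cis) for 6 h or 21 h, or PBS, and were lysed with cycloheximide, which holds ribosomes on their mRNA. The control libraries are labelled as untreated, the study's methods give PBS as the vehicle over the same times, and which of the times the PBS libraries had is not labelled. Ribosome profiling sequences the mRNA fragments that ribosomes shield from RNase I (footprints), RNA-seq measures the mRNA in the same kind of lysate, and the ratio of the former to the latter is the translation efficiency (TE). Each assay had 2 libraries per group, and the comparisons at 6 h and at 21 h share the PBS libraries. Levels are RPKM (reads per kilobase, scaled to the total of the library). Footprints are counted per length of coding sequence and RNA per length of transcript. Footprint libraries held 5204127 and 4661014 reads with PBS, 4691825 and 3375480 at 6 h, and 3686336 and 3492790 at 21 h. RNA-seq libraries held 2462084 and 2901692 reads with PBS, 1985344 and 2308981 at 6 h, and 2329158 and 2090245 at 21 h, of which Lars2, Tmem38b and Mettl26 took 51.8 to 56.6%. Log2 changes are on the scale of log2(scaled RPKM + 0.5), which understates the change of low genes, and each comes with its standard error (SE) from limma.

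Iron bound to transferrin enters cells through the transferrin receptor (Tfrc), crosses the endosomal membrane through Slc11a2, is stored in ferritin, a shell of heavy (Fth1) and light (Ftl1) chains, and leaves through ferroportin (Slc40a1). When iron is scarce, the iron regulatory proteins IRP1 (Aco1) and IRP2 (Ireb2) bind hairpins called iron-responsive elements (IREs) in the untranslated regions of mRNAs. Binding in the 5′ region, as in ferritin and ferroportin mRNAs, blocks translation, while binding in the 3′ region, as in Tfrc mRNA, protects the mRNA from decay.

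The epithelial identity of the cells was checked on 6 ductal epithelial markers, of which 6 were detected in every footprint library and 5 or 6 in the RNA-seq libraries. Their summed footprints were 9781 and 9101 RPKM with PBS, 9356 and 9298 at 6 h, and 6697 and 6838 at 21 h. Their summed RNA was 1523 and 1468 RPKM with PBS, 1469 and 1409 at 6 h, and 1316 and 1362 at 21 h, so that in both assays the libraries at 21 h were the lowest. Krt8 was the most abundant of them in all libraries but the RNA-seq libraries at 21 h, where Krt18 was, and Epcam had at most 9 reads in any library. All 5 erythroid markers were at 0 in all 12 libraries. Fibroblast (5 genes), endothelial (3 genes) and hepatocyte (3 genes) markers each summed to at most 4.52 RPKM in any library. Fibroblast markers summed in footprints to 1.10 and 1.32 RPKM with PBS, 1.46 and 2.99 at 6 h, and 1.33 and 4.18 at 21 h. Col1a1 footprints were 0.353 and 0.541 RPKM with PBS, 0.587 and 0.748 at 6 h, and 0.809 and 1.71 at 21 h. Col1a1 RNA was 0.137 and 0.232 RPKM with PBS and 0.217 and 0 at 21 h. Of 5 macrophage markers, 1 to 4 were detected in each footprint library and 0 to 2 in each RNA-seq library. They summed in footprints to 2.07 and 2.35 RPKM with PBS, 2.31 and 1.73 at 6 h, and 10.4 and 3.76 at 21 h. In RNA they summed to 0.403 and 1.03 RPKM with PBS, 0 and 0 at 6 h, and 2.13 and 4.48 at 21 h. Cd68 was the most abundant of them wherever any was detected, and in footprints it had 1.34 and 2.35 RPKM with PBS and 5.40 and 2.85 at 21 h. Lyz2 footprints were 0.433 and 0 RPKM with PBS and 4.28 and 0.645 at 21 h, and Csf1r had 3 and 0 footprint reads with PBS and 8 and 2 at 21 h. Ptprc had 2 and 0 footprint reads with PBS and 0 and 1 at 21 h. Lyz2 and Ptprc were at 0 in every RNA-seq library, and Adgre1 had 3 reads in 1 footprint library and 0 elsewhere. The lower epithelial sum at 21 h came from Krt8, with footprints of 4819 and 4679 RPKM with PBS and 3214 and 3261 at 21 h, and Krt19, with 3082 and 2683 against 1716 and 1608. Krt18 footprints overlapped (1719.7 and 1569.6 against 1668 and 1856), and Krt18 RNA was higher at 21 h (544 and 534 RPKM against 426 and 421). RNA of the others was lower at 21 h for Krt8 (464 and 482 RPKM against 579.8 and 537), Krt19 (274 and 312 against 477 and 464) and Cdh1 (31.0 and 32.4 against 38.3 and 44.8). The epithelial and macrophage sums and the Col1a1 footprints at 21 h move with the treatment, and their part in the values of the iron genes was not tested. In such bulk samples, fewer cells of a type and less RNA per cell cannot be told apart.

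Both ferritin chains had more footprints after Cis. Their RNA rose by a similar amount at 6 h on the log2 scale and moved less than footprints at 21 h. Footprints on Ftl1, the light chain, were 11.9 and 14.1 RPKM with PBS, 19.8 and 15.6 at 6 h, and 32.6 and 24.5 at 21 h. The groups did not overlap: each library at 21 h was above each at 6 h, which in turn was above each with PBS. Ftl1 RNA was 164 and 180.1 RPKM with PBS, 216 and 199 at 6 h, and 156 and 177 at 21 h. RNA was thus high at 6 h, above both PBS libraries, while at 21 h as deposited replicate 1 was below both PBS libraries and replicate 2 between them, and after scaling both were below. The log2 change of Ftl1 footprints was 0.42 (SE 0.19) at 6 h and 1.06 (SE 0.19, 95% confidence interval 0.63 to 1.498) at 21 h, and that of its RNA was 0.34 (SE 0.09) and -0.13 (SE 0.09). Without single libraries the Ftl1 footprint value at 6 h ran from 0.25 to 0.58 and the RNA value at 21 h from -0.19 to -0.08. Its TE change was 0.08 (SE 0.22) at 6 h and 1.19 (SE 0.22, 95% confidence interval 0.72 to 1.67) at 21 h, place 75 from the top among 9295 transcripts. These footprint values rest on 29 to 66 reads per library, against 352 to 506 reads in RNA-seq.

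Fth1, the heavy chain with the ferroxidase activity, was the most abundant of the 9 in both assays. Its footprints were 774 and 639.7 RPKM with PBS, 926 and 913 at 6 h, and 1887 and 1629 at 21 h, on 1628 to 3799 reads per library. Again no group overlapped another, in the order PBS, 6 h, 21 h. Fth1 RNA was 663 and 699.9 RPKM with PBS, 795 and 802 at 6 h, and 869.6 and 868 at 21 h. All 4 treated libraries lay above both PBS libraries, and those at 6 h and 21 h overlapped after scaling. The log2 change in footprints was 0.37 (SE 0.10) at 6 h and 1.28 (SE 0.10, 95% confidence interval 1.05 to 1.51) at 21 h, which is 2.43-fold. In RNA it was 0.30 (SE 0.06) at 6 h and 0.27 (SE 0.06) at 21 h, or 1.20-fold at the later time. The TE change was therefore small at 6 h, 0.07 (SE 0.12), and 1.01 (SE 0.12, 95% confidence interval 0.74 to 1.28) at 21 h.

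Per length, heavy-chain footprints exceeded light-chain footprints by 45.5 to 66.4 times in the 6 footprint libraries, and heavy-chain RNA exceeded light-chain RNA by 3.68 to 5.57 times in the 6 RNA-seq libraries. In RNA this ratio was 4.05 and 3.88 with PBS, 3.68 and 4.03 at 6 h, and 5.57 and 4.91 at 21 h, so that both libraries at 21 h were above the other 4. In footprints it was 65.0 and 45.5 with PBS, 46.8 and 58.4 at 6 h, and 57.9 and 66.4 at 21 h, and the groups overlapped. Ferritin genes have near-identical processed copies in the mouse genome, and how reads that fit several copies were counted is not given in the sources used here. The copy Ftl1-ps1 (ENSMUSG00000062382) was listed with 1 to 4 footprint reads and 2 to 10 RNA reads per library, 1.49 to 10% of the reads of Ftl1 and Ftl1-ps1 together in footprints and 0.556 to 2.26% in RNA. Levels of both chains, and their ratios of footprints to RNA, are uncertain for this reason. Fth1 is given as a transcript with a 5′ untranslated region of 795 nt, against 253 nt for Ftl1, and RNA per length depends on that choice of transcript.

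**Figure D1:**
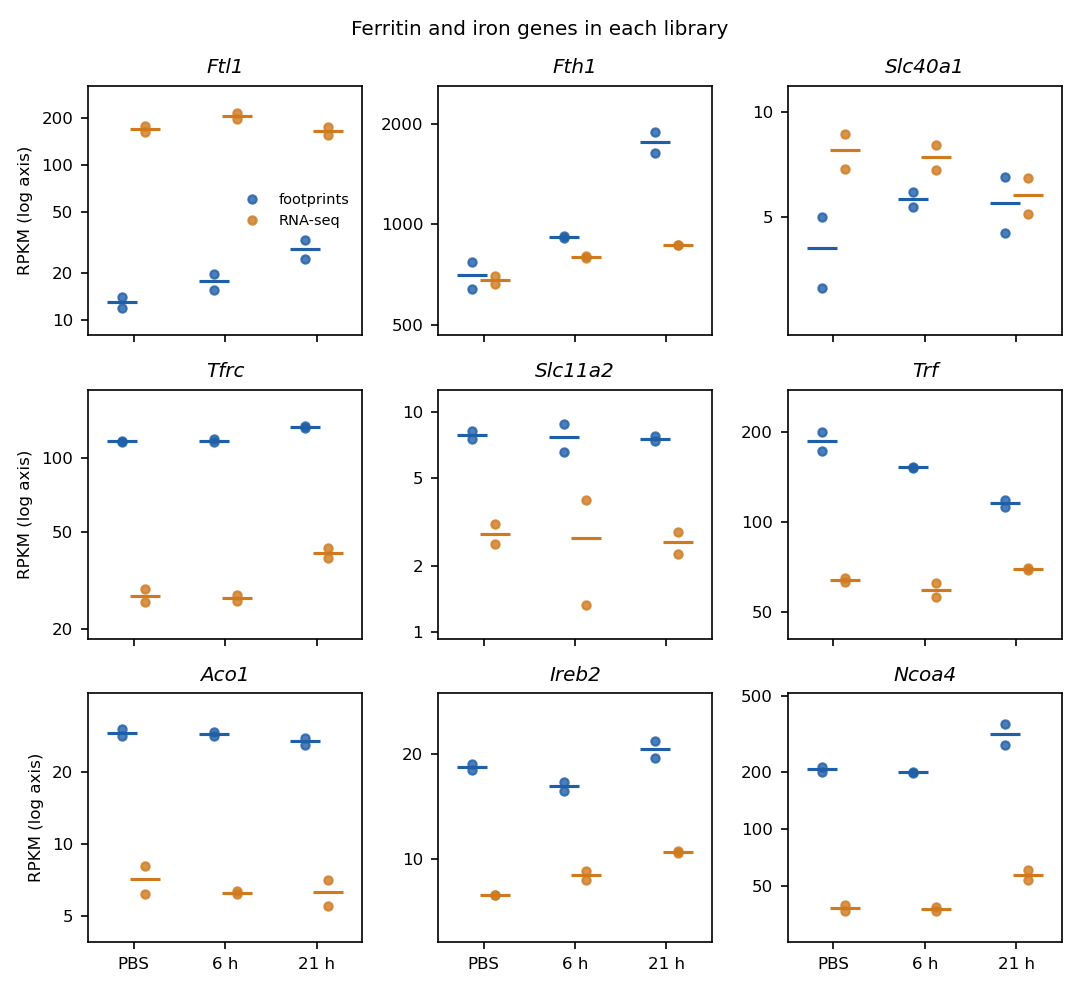
RPKM as deposited in each library (points) and the mean of the 2 libraries (bars) for each of the 9 genes, on a log axis, with footprints in blue and RNA-seq in orange. Ftl1 and Fth1 footprints at 21 h lie above those of PBS and 6 h, from 24.5 to 32.6 and from 1629 to 1887 RPKM, while the RNA of both genes spans a narrower range.

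Slc40a1 encodes ferroportin, the cellular iron exporter, whose mRNA also carries a 5′ IRE. Its footprints were 3.15 and 5.02 RPKM with PBS, 5.36 and 5.89 at 6 h, and 6.50 and 4.52 at 21 h, on 27 to 43 reads per library. Both libraries at 6 h were above both with PBS, while those at 21 h overlapped the PBS range. Slc40a1 RNA was 8.68 and 6.85 RPKM with PBS, 8.07 and 6.81 at 6 h, and 6.50 and 5.11 at 21 h, and both values at 21 h were the low ones. The log2 change at 21 h was 0.37 (SE 0.28) in footprints and -0.47 (SE 0.22) in RNA. Without single libraries the footprint value ran from 0.05 (without replicate 1 of PBS) to 0.68 (without replicate 2 of PBS), and the RNA value from -0.66 to -0.27. The TE change was 0.42 (SE 0.37) at 6 h and 0.84 (SE 0.37, 95% confidence interval 0.03 to 1.64) at 21 h. The wide interval goes with the low depth, and without single libraries the TE value ran from 0.10 to 0.74 at 6 h and from 0.52 to 1.15 at 21 h.

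Tfrc, the receptor that takes up transferrin, had a TE change below 0 at 21 h. Its footprints were 118 and 117 RPKM with PBS, 116 and 119.7 at 6 h, and 133 and 135 at 21 h. Tfrc RNA was 25.7 and 29.1 RPKM with PBS, 26.0 and 27.5 at 6 h, and 39.1 and 42.9 at 21 h. In both assays the 21 h libraries were above all others, and the 6 h libraries overlapped PBS. The log2 change at 21 h was 0.15 (SE 0.08) in footprints and 0.49 (SE 0.12) in RNA, which left a TE change of -0.33 (SE 0.13, 95% confidence interval -0.63 to -0.04). This TE change was place 1925 from the lowest among 9295 transcripts. At 6 h the TE change was -0.04 (SE 0.13), and it was 0.04 with RPKM as deposited.

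Slc11a2, the divalent metal transporter of endosomes, has mRNA forms with and without a 3′ IRE, which a single value per gene cannot separate. Its footprints were 8.23 and 7.55 RPKM with PBS, 8.88 and 6.61 at 6 h, and 7.80 and 7.39 at 21 h. The RNA values, on 8 to 28 reads, were 3.09 and 2.51 RPKM with PBS, 1.33 and 4.01 at 6 h, and 2.27 and 2.85 at 21 h. As deposited, the groups overlapped in both assays, after scaling both footprint libraries at 21 h were below PBS, and the 2 RNA libraries at 6 h were the lowest and the highest of all. A TE change of 0.08 (SE 0.48) at 6 h and 0.09 (SE 0.48) at 21 h has an interval of -0.96 to 1.14 at 21 h, which takes in both 0 and the TE change of Fth1.

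Trf encodes transferrin, the secreted carrier of iron in serum, which is made mainly by the liver and was well expressed in these cells. Its footprints were 174 and 201 RPKM with PBS, 151 and 154 at 6 h, and 119 and 113 at 21 h. Each group was below the one before it, with no overlap. Trf RNA was 63.2 and 64.9 RPKM with PBS, 56.2 and 62.3 at 6 h, and 69.1 and 70.2 at 21 h, so that RNA at 21 h was slightly above PBS. At 6 h it was the lowest as deposited, and after scaling it overlapped both PBS and 21 h. The log2 change in footprints was -0.31 (SE 0.10) at 6 h and -0.72 (SE 0.10, 95% confidence interval -0.95 to -0.49) at 21 h, and that in RNA -0.04 (SE 0.10) and 0.04 (SE 0.10), where the value at 6 h was 0.03 without replicate 1 of 6 h RNA-seq. TE followed the footprints, with -0.26 (SE 0.14) at 6 h and -0.76 (SE 0.14, 95% confidence interval -1.07 to -0.45) at 21 h, the lowest value among the 9. Without single libraries the values at 6 h ran from -0.44 to -0.19 in footprints and from -0.39 to -0.14 in TE. The 3 hepatocyte markers together had 1 to 6 reads in each RNA-seq library. Alb had 2 and 2 footprint reads with PBS and 4 and 15 at 21 h, Apoa1 4 and 9 against 4 and 6, and Ttr 0 in every footprint library, and their part in the Trf values was not tested.

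The sensors come next. Footprints on Aco1, which is a cytosolic aconitase when it holds an iron-sulfur cluster and IRP1 when it does not, were 30.0 and 28.1 RPKM with PBS, 29.2 and 28.2 at 6 h, and 25.7 and 27.7 at 21 h. Its RNA was 8.06 and 6.21 RPKM with PBS, 6.18 and 6.33 at 6 h, and 7.06 and 5.49 at 21 h. The 21 h footprint libraries were the lowest, by little, and the RNA groups overlapped. Its log2 change at 21 h was -0.15 (SE 0.12) in footprints, -0.25 (SE 0.22) in RNA and 0.09 (SE 0.25) in TE, and the TE value was -0.09 without replicate 1 of PBS RNA-seq. Without single libraries these values ran from -0.20 to -0.09 in footprints, -0.45 to -0.05 in RNA and -0.11 to 0.29 in TE.

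Ireb2, or IRP2, senses iron through its own degradation, for which Fbxl5 is the ligase subunit. Its footprints were 18.8 and 18.0 RPKM with PBS, 16.7 and 15.7 at 6 h, and 21.9 and 19.5 at 21 h. Ireb2 RNA was 7.88 and 7.88 RPKM with PBS, 8.73 and 9.23 at 6 h, and 10.4 and 10.5 at 21 h. Footprints were thus below PBS at 6 h and above it at 21 h, while RNA was higher at each step, without overlap in either assay. The log2 change was -0.19 (SE 0.14) and 0.13 (SE 0.14) in footprints and 0.24 (SE 0.16) and 0.31 (SE 0.16) in RNA. The TE change of -0.43 (SE 0.20, 95% confidence interval -0.86 to -0.004) at 6 h was the lowest of the 9 at that time, and at 21 h it was -0.18 (SE 0.20). Without single libraries the values at 21 h ran from 0.06 to 0.22 in footprints and from -0.25 to -0.09 in TE.

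Ncoa4, the receptor that delivers ferritin to lysosomes for iron release, had footprints of 212 and 199 RPKM with PBS, 200.0 and 197 at 6 h, and 354 and 275 at 21 h. Its RNA was 39.9 and 37.0 RPKM with PBS, 39.2 and 37.1 at 6 h, and 60.7 and 54.1 at 21 h. Both assays were high at 21 h without overlap and close to PBS at 6 h, where footprints overlapped PBS as deposited and were below it after scaling. The log2 change at 21 h was 0.57 (SE 0.12) in footprints and 0.49 (SE 0.12) in RNA, which left a TE change of 0.08 (SE 0.17). Footprints and RNA of Ncoa4 were thus higher by similar factors, 1.48-fold and 1.40-fold, unlike those of ferritin.

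Ordered by TE change at 21 h, Ftl1 (1.19), Fth1 (1.01) and Slc40a1 (0.84) came first, and these are the 3 whose mRNA is known for a 5′ IRE. The other 6 lay between -0.76 (Trf) and 0.09 (Aco1). Intervals of the first 3 overlap one another, and the order among Aco1, Slc11a2 and Ncoa4, at 0.09, 0.09 and 0.08, is within their SE. IRE sequences were not read here, and which mRNA carries one is background knowledge.

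The resting level of TE differed more among the genes than any change over time. With PBS, footprint RPKM divided by RNA RPKM was 0.0767 for Ftl1, 0.534 for Slc40a1 and 1.05 for Fth1, against a median of 3.49 over 9292 transcripts. This ratio has no absolute meaning, since a few transcripts take most RNA-seq reads, so it is given with its rank among transcripts. The doubts about ferritin copies and about the Fth1 transcript bear on the ranks of Ftl1 and Fth1 as well. Ftl1 was place 5 from the lowest, with 0.043% of transcripts below it, Slc40a1 had 1.302% below it and Fth1 6.45%. Ireb2 (2.36), Slc11a2 (2.86) and Trf (2.97) lay under the median and Aco1 (4.12), Tfrc (4.34) and Ncoa4 (5.42) above it.

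Over the 4 pairings of a footprint with an RNA library in each group, the ratio of Fth1 was 0.949 to 1.16 with PBS, 1.09 to 1.11 at 6 h and 1.92 to 2.33 at 21 h. The ratio of Ftl1 was 0.0668 to 0.0874 with PBS, 0.0692 to 0.0956 at 6 h and 0.149 to 0.213 at 21 h. For both chains the pairings at 21 h stood clear of PBS and 6 h, which overlapped. The ratio of Slc40a1, 0.359 to 0.760 with PBS and 0.713 to 1.36 at 21 h, overlapped. Trf, Tfrc and Ireb2 stood clear of PBS on the low side. Their ratios at 21 h were 1.67 to 1.82, 3.32 to 3.55 and 1.92 to 2.23. With PBS they were 2.71 to 3.24, 4.09 to 4.62 and 2.32 to 2.41. At 21 h, 26.5% of transcripts had a lower ratio than Fth1 and 6.29% a lower ratio than Slc40a1, while Ftl1 was still place 21 from the lowest.

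**Figure D2:**
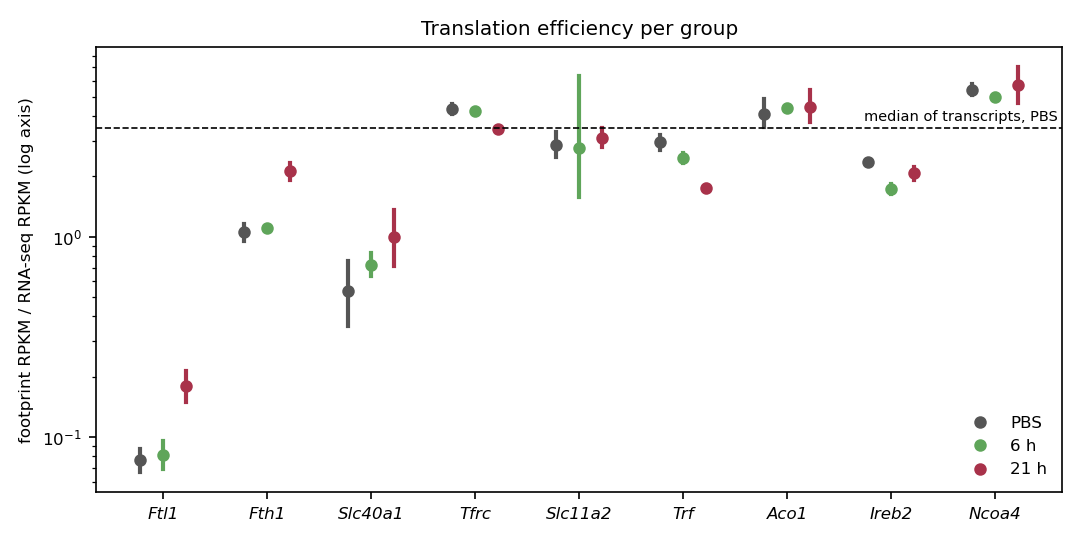
Ratio of footprint to RNA-seq RPKM (scaled, log axis) for the 9 genes with PBS, at 6 h and at 21 h. Points are ratios of group means, bars span the 4 pairings of a footprint and an RNA library, and the dashed line is the median of 3.49 over all transcripts with PBS. Ftl1, Fth1 and Slc40a1 start lowest. The 21 h bars of Ftl1 and Fth1 lie above those of PBS without meeting them, and those of Trf, Tfrc and Ireb2 lie below. The share of all transcripts whose bars separate was not counted.

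Counted against an adjusted p under 0.05 over all transcripts tested (limma with Benjamini-Hochberg adjustment), 0 of the 9 genes were called in any assay at 6 h. At that time 2.04% of 10383 transcripts were called in footprints, 0% of 9443 in RNA and 0% of 9295 in TE, where 2217, 1086 and 710 had an unadjusted p under 0.05. With limma's voom on recovered reads 1276, 229 and 14 transcripts were called in place of 212, 0 and 0. The 212 became 17 and 30 without PBS replicates 1 and 2, 6 and 0 without 6 h replicates 1 and 2, and 388 and 398 without 21 h replicates 1 and 2. At 21 h, 3 genes were called higher and 1 lower in footprints (39.1% of 10383 transcripts called), 3 higher in RNA (23.8% of 9443) and 2 higher and 1 lower in TE (0.409% of 9295). The 38 TE calls over all transcripts became 23 and 12 without footprint replicates 1 and 2 of PBS, 6 and 6 without those of 6 h, and 3 without replicate 2 of 21 h. Without RNA replicates 1 and 2 of PBS they became 5 and 3, and without replicate 2 of 21 h RNA-seq 2. With the replicate block, and also without the variance trend, 0 transcripts were called in TE at 21 h, the 3 genes included, where 1183 had an unadjusted p under 0.05 in the model used throughout and voom called 151. Since the choice of genes drew on these contrasts, nothing is read from the counts. The median change of the 9 at 21 h was 0.15 in footprints, 0.04 in RNA and 0.09 in TE, beside 0.01, 0.02 and -0.04 over all transcripts.

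**Figure D3:**
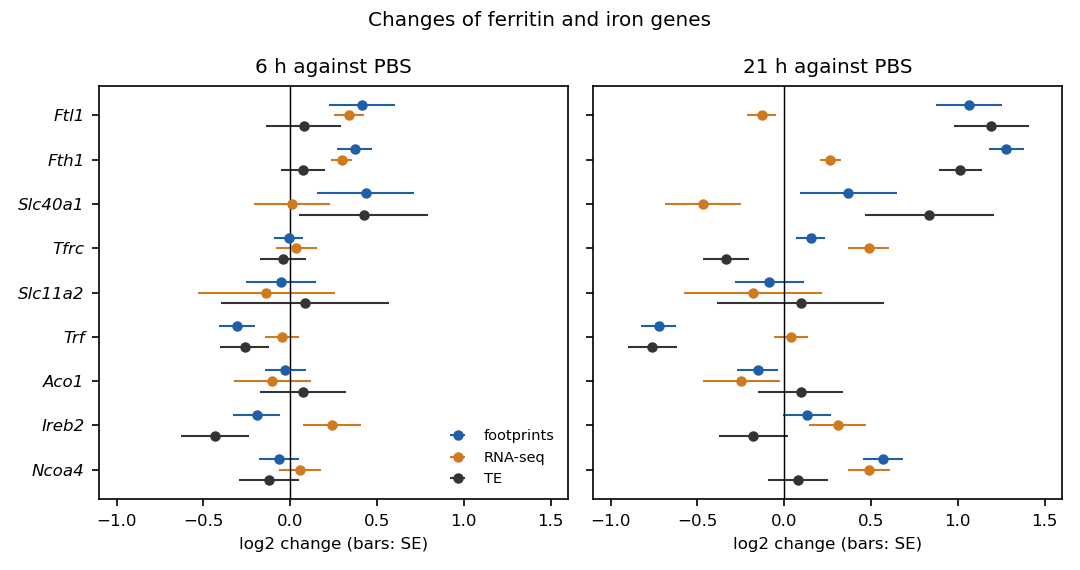
Log2 change against PBS of the 9 genes at 6 h and 21 h in footprints (blue), RNA-seq (orange) and TE (black), with bars for the SE. At 21 h the TE change of Ftl1, Fth1 and Slc40a1 is 1.19, 1.01 and 0.84, and that of Trf and Tfrc is -0.76 and -0.33.

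Other mRNAs with a reported IRE or IRE-like element gave 5 tested genes in each assay, and limma called none in TE or at 6 h. At an unadjusted p under 0.05, 2 were lower in footprints and 2 in RNA at 6 h, 0 in TE at 6 h and 1 in TE at 21 h, and voom called 1, 1, 0 and 0. At 21 h, 0 were called higher and 3 lower in footprints and 1 higher and 3 lower in RNA (60 and 80% called, beside 39.1 and 23.8%), with medians of -1.43 and -1.04 beside 0.01 and 0.02 over all transcripts. App, the amyloid precursor protein, fell in footprints from 281 and 288 RPKM to 109 and 107 at 21 h (log2 change -1.43, SE 0.08, adjusted p = 1.2e-05 in limma). Its RNA fell from 22.4 and 24.3 RPKM to 11.2 and 12.3 (log2 change -1.04, SE 0.15, adjusted p = 0.00125 in limma). Cdc14a and Cdc42bpa, a phosphatase and a kinase, fell in footprints by 1.91 and 1.61 and in RNA by 1.31 and 1.66, on 3 and 4 footprint reads at 21 h for Cdc14a. The RNA call of Cdc14a was lost without replicate 2 of 21 h (adjusted p = 0.159, over alternatives 0.00377 to 0.159). Pfn2 rose by 0.89 in RNA (SE 0.29, adjusted p = 0.0488 in limma), a call lost under 9 of 12 alternatives, among them leaving out any RNA-seq library but replicate 2 of 6 h, with adjusted p from 0.0329 to 0.234. Epas1, or HIF-2α, an mRNA with a 5′ IRE, had 19 and 18 footprint reads with PBS and 2 and 9 at 21 h, and 9 and 8 RNA reads with PBS and 1 and 2 at 21 h. It missed the filter and was not tested. Alas2, the erythroid enzyme of heme synthesis, gave no value here.

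In heme synthesis, transport and breakdown, limma called genes higher and 0 lower. In footprints, 2 of 22 tested were called higher at 6 h and 8 at 21 h (9.09 and 36.4%, beside 2.04 and 39.1% of all transcripts), with medians of 0.17 and 0.32. At an unadjusted p under 0.05, 1 was lower at each time, and voom called 0 lower at 6 h and 1 at 21 h. In RNA at 21 h 3 of 21 were higher (14.3%, beside 23.8%) with a median of 0.28 beside 0.02, and 0 lower, against 1 at an unadjusted p under 0.05 and 0 by voom. Hmox1, heme oxygenase, which releases iron from heme, had footprints of 131 and 115 RPKM with PBS, 167 and 185 at 6 h, and 374 and 298 at 21 h. At 21 h its footprints rose by 1.40 (SE 0.12, adjusted p = 8.7e-05 in limma) and its RNA by 0.72 (SE 0.16, adjusted p = 0.0114), while its TE change of 0.68 (SE 0.22, adjusted p = 0.237) was not called. The RNA call was lost without replicate 2 of PBS, without replicate 1 of 21 h and without the variance trend (adjusted p over alternatives up to 0.076). Slc48a1, a heme transporter of endolysosomes, rose in footprints from 23.3 and 13.7 RPKM to 50.8 and 54.3 at 21 h (log2 change 1.49, SE 0.21, adjusted p = 0.000843 in limma). Its TE change at 21 h was 1.21 (SE 0.27, adjusted p = 0.0849 in limma), and 0.86 to 1.56 over alternatives. This TE change passed the threshold under 2 of 19 alternatives, among them leaving out replicate 1 of PBS footprints. Alas1, the first enzyme of heme synthesis, rose in footprints by 0.52 at 6 h and 0.56 at 21 h and in RNA by 0.90 at 21 h. Hebp2, a heme-binding protein, rose by 1.80 at 6 h and 1.63 at 21 h on 3 to 20 footprint reads per library. Pgrmc1, another heme-binding protein, rose by 0.35 in footprints and 0.74 in RNA at 21 h. The calls of Alas1 and Hebp2 at 6 h were lost when any single PBS or 6 h footprint library was left out (adjusted p up to 0.223 and 0.197), and those of Pgrmc1 without replicate 1 of PBS or of 21 h (up to 0.132 and 0.0727). All 4 calls were also lost without the variance trend, those of Alas1 and Hebp2 with no filter, and that of Alas1 with the replicate block.

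Of 15 iron transport and handling genes tested in footprints at 21 h, 1 was called higher, 4 lower and 10 neither (33.3% called, beside 39.1%), with a median of -0.33 beside 0.01. In RNA at 21 h limma called 0 of 15 (beside 23.8% of all transcripts), with 3 at an unadjusted p under 0.05 and 3 by voom, and a median of -0.13. At 6 h the footprint calls were also 0, with 5 at an unadjusted p under 0.05 and 2 by voom. Ceruloplasmin, Cp, the ferroxidase that works with ferroportin, fell in footprints from 26.0 and 26.2 RPKM with PBS to 9.91 and 9.58 at 21 h (log2 change -1.41, SE 0.13, adjusted p = 0.000144 in limma). Its libraries at 6 h, 17.9 and 17.9 RPKM, lay between. Lcn2, a carrier of iron-binding siderophores, fell by 0.59 and Pcbp2, a cytosolic iron chaperone that loads ferritin, by 0.39, while the lysosomal channel Mcoln1 rose by 0.58. The call of Mcoln1 was lost when any single PBS or 21 h footprint library was left out, with the replicate block and with no filter (adjusted p up to 0.164), and that of Pcbp2 without the variance trend (0.0525, over alternatives 9.3e-05 to 0.0525).

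Of 26 iron-sulfur cluster assembly genes tested, 2 were called higher and 1 lower in footprints at 6 h (11.5%, beside 2.04%). At 21 h 5 were higher and 8 lower (50%, beside 39.1%), with medians of 0.09 and 0.12. In RNA at 21 h 3 were higher and 2 lower (19.2%, beside 23.8%). Lyrm4, a subunit of the cysteine desulfurase complex, fell in footprints from 74.6 and 84.1 RPKM with PBS to 41.4 and 33.6 at 6 h and 13.9 and 17.8 at 21 h. Its footprints had a log2 change of -1.09 (SE 0.16, adjusted p = 0.0285 in limma) at 6 h and -2.33 (SE 0.16, adjusted p = 3.2e-05) at 21 h, and its RNA -2.01 (SE 0.31) at 21 h, on 4 and 2 reads. Nubpl and Nubp1, scaffold proteins of cluster assembly in mitochondria and cytosol, fell in footprints by 2.31 and 0.67 at 21 h, and Nubp1 RNA fell by 0.66 (SE 0.16, adjusted p = 0.016). Ciapin1 rose in footprints by 0.85 at 6 h and 0.63 at 21 h and in RNA by 0.83 at 21 h. Bola2 rose in footprints by 0.80 at 6 h and 0.71 at 21 h, with RNA changes of -0.09 and -0.16. Its TE change at 21 h was 0.87 (SE 0.17, adjusted p = 0.0545 in limma), and 0.81 to 0.92 over alternatives. This TE change passed the threshold under 2 of 19 alternatives, among them leaving out replicate 2 of 6 h RNA-seq. At 21 h Fdx2 and Ciao1 rose in footprints by 0.73 and 0.63, and Ciao2a and Hspa9 in RNA by 0.48 and 0.27. Several of these calls depend on single libraries and on the settings. At 6 h those of Lyrm4 and Bola2 were lost when any single PBS or 6 h footprint library was left out, and that of Ciapin1 without either 6 h library (adjusted p up to 0.196, 0.163 and 0.0806). At 21 h the RNA calls of Ciao2a and Hspa9 were lost when any single PBS or 21 h library was left out (up to 0.208 and 0.221), that of Ciapin1 without replicate 2 of PBS or either of 21 h (up to 0.139), and the footprint call of Fdx2 without either PBS library or replicate 2 of 21 h (up to 0.185). The calls of Lyrm4, Bola2 and Ciapin1 at 6 h, of Ciao2a and Hspa9 in RNA and of Fdx2 were also lost without the variance trend. Those of Lyrm4 and Bola2 at 6 h, Ciao2a and Fdx2 were lost with no filter, that of Lyrm4 at 6 h with the replicate block, and that of Fdx2 with voom. Nubp1 lost its footprint call without replicate 1 of PBS (up to 0.0543) and its RNA call without either PBS library or replicate 2 of 21 h (up to 0.109).

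Among 8 partners of Ncoa4 in ferritinophagy, 2 were called higher and 2 lower in footprints at 21 h (50%, beside 39.1%), with a median of -0.01, which was 0.02 with RPKM as deposited. Atg7, an enzyme of autophagosome formation, fell in footprints from 9.59 and 9.46 RPKM to 0.732 and 0.644 (log2 change -3.10, SE 0.23, adjusted p = 4.1e-05 in limma), on 6 and 5 reads at 21 h. Its RNA fell from 24 and 39 reads to 3 and 0 (adjusted p = 0.00189), and at such counts the size of the change depends on the pseudocount. Herc2, the ligase that degrades Ncoa4, fell in footprints by 1.07 (SE 0.28), and Wipi2 and Atg16l1, which act at the forming autophagosome, rose by 0.57 and 0.53. The calls of Herc2 and Atg16l1 were lost without either PBS footprint library or replicate 1 of 21 h (adjusted p up to 0.0884 and 0.111). Over all these lists limma called 0 of 73 genes in TE at 6 h and 0 at 21 h, where 7 and 14 had an unadjusted p under 0.05 and voom called 0 and 4. In RNA at 6 h it called 0 of 75, with 9 at an unadjusted p under 0.05 and 2 by voom. The footprint calls at 6 h, 5 over all lists (6.58%, beside 2.04%), were 0 without either 6 h library and also without the variance trend, 8 without either 21 h library, and 2 and 1 without PBS replicates 1 and 2. The 13 RNA calls at 21 h (17.3%, beside 23.8%) became 7 and 6 without PBS replicates 1 and 2 and 8 and 7 without 21 h replicates 1 and 2.

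The transcripts most like Ftl1 in their 4 log2 changes (footprints and RNA at 6 h and 21 h, Euclidean distance among 9295 transcripts) were Slc25a36 (0.32), Zfp768 (0.34), Tepsin (0.35), Orai2 (0.35) and Slc35f6 (0.35). Fth1 was place 24 in this order, at 0.46. For Tfrc they were Zfp26 (0.02), Tyw5 (0.04), Mgst1 (0.06), Rnf2 (0.06) and Steap1 (0.08). The distances are descriptive, and the SE of the Ftl1 changes is of the same order as the distances themselves.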

How the data were processed

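The authors deposited RPKM for 1 transcript per gene in each library, per length of coding sequence (footprints) or of transcript (RNA). The submitters' processing notes name cutadapt, STAR and GRCm39, with no version or role. Multiplied by length, 100% of values were whole multiples of 1 read (within 0.01 reads), which gave reads per gene and depth. Unlisted transcripts were set to 0.

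Median-of-ratios factors, computed separately for footprints and RNA, scaled the libraries and moved the median change by at most 0.08 on the log2 scale. The filter kept transcripts whose scaled RPKM averaged 1 or more (10383 footprints, 9443 RNA, 9295 TE), and log2(RPKM + 0.5) was fitted in limma 3.58.1 (R 4.3.3; lmFit, eBayes with a trend), with 3 groups per model and TE as the assay-by-treatment interaction of all 12 libraries. All tests are two-sided, and p-values were adjusted by Benjamini-Hochberg over all transcripts (threshold 0.05). The smallest two-sided p that exact permutation of 2 against 2 libraries allows is 0.333. No label says that replicates were separate cultures, so p-values measure only the spread between libraries, which may be technical.

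The members and lists were chosen with earlier results of these data known. Named besides the 9 genes are ferritin copies, up to 3 called rises and 3 called falls per list and contrast, Alas2, Epas1 and Hmox1, and the 5 transcripts nearest to Ftl1 and to Tfrc. The alternatives were a pseudocount of 0.1, no filter, a mean RPKM of at least 5, RPKM as deposited, eBayes without the trend, the replicate number as a block, voom on the recovered reads, and each library left out in turn. The scripts were tested on simulated data. Python 3.11.15, pandas 2.3.3, numpy 2.4.6 and matplotlib 3.10.9 were used.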

Additional observations from a re-analysis of the deposited data

Results flagged for a closer look

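For the genes of the lists, the change at 21 h was compared with the change at 6 h in the same limma fits, and 19 differences of the named genes passed an adjusted p under 0.05 over all transcripts tested. They are 12 of 27 in footprints, 6 of 25 in RNA and 1 of 25 in TE, for genes named largely because they were called at 6 h or 21 h. Over the whole lists 18 of 76, 7 of 75 and 2 of 73 passed (23.7, 9.33 and 2.74%), beside 30.7, 15.7 and 1.01% of all transcripts. They are given as the 21 h level minus the 6 h level on the log2 scale. Apart from the scaling, the shared PBS libraries do not enter these sizes, but they enter the filter and the variance behind the adjusted p. In footprints the difference was -1.26 for App, -2.43 for Atg7, -1.13 for Cdc42bpa, -0.86 for Cp, -1.24 for Lyrm4, -1.03 for Nubp1, -2.23 for Nubpl and -0.52 for Pcbp2. On the other side it was 0.90 for Hmox1, 0.55 for Ciao1, 0.57 for Pfn2 and 0.34 for Wipi2. In RNA it was -0.86 for App, -1.93 for Atg7, -0.74 for Cdc42bpa and -1.23 for Lyrm4, and 0.57 for Hmox1 and 0.32 for Hspa9. In TE it was -0.58 for Pcbp2, whose footprints alone differed, as its RNA was close to PBS at both times. Nubpl and Atg7 had at most 7 footprint reads in each 21 h library, so the size of their difference depends on the pseudocount.

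For 5 further values, both libraries at 6 h lay on one side of the PBS mean and both at 21 h on the other, which is why they are given. The same fits cover their differences. For Ftl1, Ireb2 and Ncoa4, chosen with these values known, the difference is a description with no test, and for Atg16l1 and Mcoln1 it missed the threshold (adjusted p = 0.243 and 0.0703 in limma). After scaling, Ftl1 RNA was above PBS at 6 h and below it at 21 h, a difference of -0.47. Ireb2 footprints were below PBS and then above it (0.32), as were those of Ncoa4 (0.63). RNA of Atg16l1 (0.46) and Mcoln1 (0.80) went from below to above. Ftl1 RNA is the case in which the light and heavy ferritin chains part, since Fth1 RNA stayed above PBS at both times.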

How the results depend on the processing

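The TE change at 21 h stayed above 0 under all 19 alternatives for Ftl1 (1.001 to 1.40) and for Fth1 (0.89 to 1.13). Of 806 values of the 9 genes under alternatives, 37 moved by more than the spread between replicates, and Aco1, Slc11a2 and Ncoa4 had TE changes at 21 h on either side of 0. At 6 h the TE changes of Ftl1, Fth1, Tfrc, Aco1 and Slc11a2 did so too. The number of transcripts called depended on the variance model and the filter. In footprints at 6 h, 212 calls became 17 with no filter, 344 with a mean RPKM of at least 5, 0 without the trend, 37 with the replicate block and 1276 with voom, and 0 to 398 without single libraries. For the lists together the 5 calls became 1 with no filter, 0 without the trend, 16 with voom and 0 to 8 without single libraries. In RNA at 6 h, 0 calls became 229 with voom (2 in the lists) and at most 1 without single libraries (0 to 1). TE at 6 h went from 0 to 1 with a pseudocount of 0.1 and to 14 with voom. In RNA at 21 h, 2245 calls became 1058 to 2309 without single libraries, and 13 in the lists became 6 to 15. The 38 TE calls at 21 h became 8 with no filter, 67 with a mean RPKM of at least 5, 0 without the trend, 0 with the replicate block, 151 with voom, and 2 to 43 without single libraries, and in the lists 0 became 1 with a mean RPKM of at least 5, 4 with voom and 0 to 1 without single libraries. The cause of these moves was not tested, except that fewer libraries or transcripts enter some fits. Where a group was left with 1 library, it was assumed to vary like the others. Whether same-numbered libraries were paired is not labelled. Correlations of the deviations of same-numbered libraries between groups and assays ran from -0.0403 to 0.0352. They show no strong shared deviation, but counting noise could hide a weak one, so they do not settle the pairing. The block changed counts of calls by over 1.5 times in footprints at 6 h and TE at 21 h. For the named genes of the lists, 85 values under alternatives lost a call, 27 gained one and 0 reversed. Depth limits Slc40a1, Slc11a2 and Ftl1 most.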
